A study of Mus musculus with 12 samples.

Results

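The genes described here are 43 markers of the minor cell types of the liver: hepatic stellate cells and fibroblasts, endothelial cells and bile duct cells. They were chosen by name, and all 43 symbols were found, each on 1 row, among the 27105 genes of the deposited count table. By cell type they were 21 stellate and fibroblast genes, 14 endothelial genes and 5 bile duct genes. The other 3, Krt8, Krt18 and Spp2, are also made by hepatocytes and are described apart.

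RNA was measured by bulk sequencing in 12 mouse livers, of which 6 came from mice on a ketogenic diet, a diet very low in carbohydrate and rich in fat, and 6 from mice on a control diet. Both groups were labelled as biological replicates with no genotype or other agent. The sources used here do not state the diets' composition and duration or the age, sex and strain of the mice. A library such as ketogenic 4 or control 6 takes its name from its diet and its replicate number.

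Stellate cells lie between the hepatocytes and the sinusoidal endothelium, store vitamin A as retinyl ester, and after injury can turn into contractile cells that lay down collagen. Sinusoidal endothelial cells form a fenestrated lining that clears debris from the blood and sends BMP and Wnt signals to the hepatocytes beside them. Bile duct cells, or cholangiocytes, line the ducts of the portal tracts and are marked by keratins that normal hepatocytes lack. In bulk RNA of liver, fewer cells of a type and less RNA per cell cannot be told apart.

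The libraries held 30176579 to 33538911 counts, and no 2 libraries of the same diet agreed within counting noise. Ketogenic 4 stood apart: its median correlation with the other livers of its diet was 0.951, against 0.978 to 0.984 for the other 5 ketogenic livers. Its genes also deviated with exonic length, the merged length of all annotated exons of a gene, from their mean over all other libraries of both diets. Spearman's rho was −0.496 over all genes tested, against −0.309 to 0.312 in the other libraries. Control 6 had the second lowest median correlation with its own diet, 0.972. Results that rest on either library are given with and without it. Of the other cells a liver sample may hold, macrophage markers were present in every library (11 of 11 tested, none called). Their summed share of the counts was 0.0586 to 0.0963% in ketogenic livers and 0.0486 to 0.0792% in control livers. The pancreas genes Cpa1, Ctrb1, Pnlip and Prss2 and fat cell genes Adipoq, Plin1 and Retn were at or near 0. With Cela1, the 5 pancreas genes of the list summed to 7.52 to 27.5 CPM in ketogenic livers and 8.66 to 27.9 CPM in control livers. Of these 5, 1 was tested and not called. The 4 fat cell genes found, of 5 listed, summed to 0.120 to 1.59 CPM in ketogenic livers and 0.0336 to 0.180 CPM in control livers. The highest was ketogenic 3.

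No marker passed the test for a change with diet. In edgeR's quasi-likelihood test with Benjamini-Hochberg adjustment over 13995 genes, 3.78% of all genes tested were called at an adjusted p under 0.05 (2.34% higher and 1.44% lower on the ketogenic diet), and 0 of the 41 markers tested were. DESeq2 and limma-voom also called 0 of them, beside 7.35% and 3.54% of all genes. At an unadjusted p under 0.05 each of the 3 tools passed 4 markers, while edgeR passed 16.7%, DESeq2 17.8% and limma-voom 16.7% of all genes. In edgeR these 4 were Pecam1, Vwf and Spp2 on the higher side (9.05% of all genes) and Sox9 on the lower (7.67%). Without ketogenic 4 and control 6, 0 of 41 markers were called, beside 4.44% of all genes, and without control 6 alone 0 of 42, beside 3.17%. Timp1 and Cftr had too few counts to be tested. The median log2 fold change was 0.13 over the 41 markers and −0.00 over all genes, with 30 of 41 markers above 0 against 49.9% of all genes. Without ketogenic 4 the median was 0.08, with 26 of 41 above 0, and without control 6 it was 0.16, with 35 of 42. Without both livers it was 0.06, with 24 of 41 above 0. The markers come from the same livers and are not independent of one another. The 95% interval lay within a 2-fold change either way for 32 of the 41. The other 9 were Acta2, Col1a1, Col1a2, Col3a1, Krt19, Epcam, Krt8, Krt18 and Spp2.

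**Figure D1:**
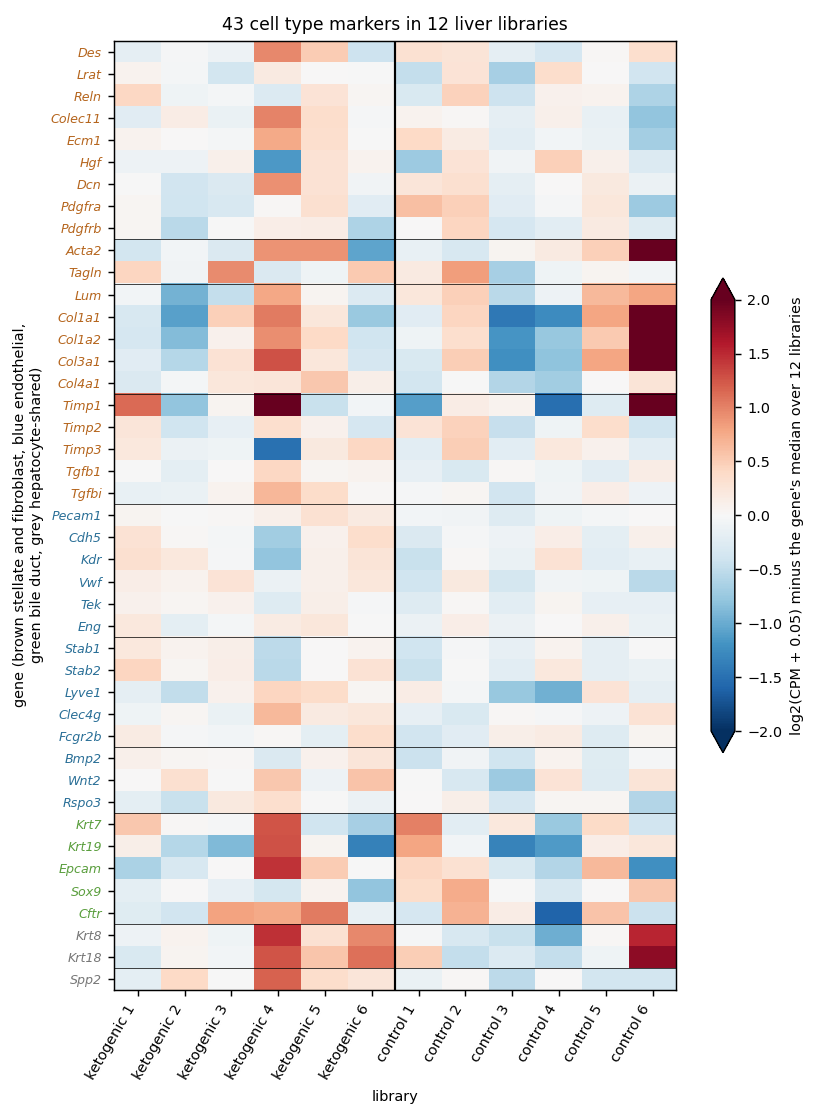
Colour gives each marker's log2(CPM + 0.05) minus its median over 12 libraries (CPM, counts per 1000000 of a library size scaled by edgeR's TMM method), with genes in rows by cell type and libraries in columns, ketogenic left of control, and colours limited at 2 either way. Ketogenic 4 is high in 22 of 43 markers and low in 11 relative to every other ketogenic liver (33.1% and 33.8% of all genes tested), and control 6 stands out in Acta2, the fibrillar collagens, Timp1, Krt8 and Krt18.

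Several contractile and matrix genes varied widely between livers. Timp1 (ENSMUSG00000001131), an inhibitor of matrix metalloproteinases, spanned 99.8-fold over the 12 livers, but from a lowest count of 1 and too sparse to be tested. Col1a1 spanned 22.9-fold and Acta2 17.2-fold, while Tek spanned 1.303-fold. Upstream windows of 4 such genes with an entry in RefSeq's promoter table are shown because they were high in the same library, control 6. The letters are 250 bases before the start of transcription on the gene's strand in GRCm38.p6, with CATTCC or its complement, the M-CAT motif that TEAD factors bind, in capitals.
Acta2, chr19:34255374-34255623, minus strand: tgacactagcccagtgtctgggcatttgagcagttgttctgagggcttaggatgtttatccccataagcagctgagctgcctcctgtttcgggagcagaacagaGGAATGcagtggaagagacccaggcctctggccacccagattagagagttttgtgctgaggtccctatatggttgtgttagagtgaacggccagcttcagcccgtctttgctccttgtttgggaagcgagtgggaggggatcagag
Timp1, chrX:20869916-20870165, plus strand: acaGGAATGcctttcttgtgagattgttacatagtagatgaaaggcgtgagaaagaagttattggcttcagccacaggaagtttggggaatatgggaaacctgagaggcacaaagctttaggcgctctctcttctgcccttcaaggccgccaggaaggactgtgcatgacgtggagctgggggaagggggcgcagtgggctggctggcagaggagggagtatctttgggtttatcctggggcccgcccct
Col1a2, chr6:4505368-4505617, plus strand: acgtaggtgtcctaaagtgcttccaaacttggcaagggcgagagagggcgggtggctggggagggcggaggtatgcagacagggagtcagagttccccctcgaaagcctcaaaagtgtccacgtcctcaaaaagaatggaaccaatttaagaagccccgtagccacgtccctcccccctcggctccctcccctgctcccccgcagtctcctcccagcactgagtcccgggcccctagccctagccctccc
Col3a1, chr1:45311288-45311537, plus strand: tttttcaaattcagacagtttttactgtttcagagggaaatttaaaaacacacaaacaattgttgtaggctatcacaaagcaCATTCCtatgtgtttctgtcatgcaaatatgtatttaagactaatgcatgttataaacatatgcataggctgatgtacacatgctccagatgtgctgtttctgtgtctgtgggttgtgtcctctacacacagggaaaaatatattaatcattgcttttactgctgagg

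The M-CAT motif lay in 3 of these 4 windows, 146, 247 and 168 bases before the start of Acta2, Timp1 and Col3a1, and in 12.6% of 32851 mouse promoter windows of the same length, both strands counted. Among 30 markers with an entry, 4 held it. The other motifs searched on both strands were CCAAT (2 of 4 windows, 33.8% of all promoters), TATAA (1 of 4, 22.8%), GGGCGG (2 of 4, 32.7%), CACCC (2 of 4, 52.0%) and TGACTCA (0 of 4, 4.46%). No capitals overlapped another motif searched. The motifs were chosen with the windows in view, and a match describes the letters only.

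Stellate identity genes were present in all 12 livers. Lrat (ENSMUSG00000028003), the enzyme that esterifies retinol for storage, had a lowest, median and highest level of 15.3, 19.9 and 22.3 CPM in ketogenic livers, against 12.5, 17.5 and 25.2 CPM in control livers. The ketogenic values lay inside the control range. The fitted log2 fold change of Lrat was 0.08 ± 0.17 (SE, edgeR, adjusted p = 0.882, n = 6 each), with a 95% interval of −0.28 to 0.45. The 9 identity genes, which include the intermediate filament desmin (Des), the secreted glycoprotein reelin (Reln), hepatocyte growth factor (Hgf) and the PDGF receptors, summed to 0.0594 ± 0.0125% of counts in ketogenic livers and 0.0513 ± 0.00994% in control livers (SD, n = 6 each).

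None of the 9 was called, and 6 had a log2 fold change above 0, with a median of 0.08. Des was at 0.11, Reln at 0.14, Pdgfra at −0.19 and Pdgfrb at −0.11 on that scale. Colec11, a lectin of the complement system, was at 38.2, 46.7 and 89.1 CPM in ketogenic livers and at 25.8, 43.03 and 48.0 CPM in control livers. Both ends of that spread came from the libraries that stand apart, since ketogenic 4 had the highest value and control 6 the lowest. The log2 fold change of Colec11 was 0.37 ± 0.20 with all livers (SE, edgeR, adjusted p = 0.401) and 0.06 without those 2 livers. Ecm1 and Dcn, both secreted matrix proteins, followed the same pattern in ketogenic 4, at 259 and 325 CPM, against 149 to 193 and 132 to 211 CPM in the other 5 ketogenic livers. Without ketogenic 4 and control 6, 3 of the 9 lay above 0 and the median was −0.01.

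Of 18 further stellate genes tested, 12 lay above 0 and 6 below with all livers, with a median log2 fold change of 0.06. Without ketogenic 4 and control 6 the split turned to 5 above and 13 below, with a median of −0.11.

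Acta2 and the fibrillar collagen genes were highest in 1 control liver, control 6. Among ketogenic livers, Col1a1, Col1a2 and Col3a1 were highest in ketogenic 4. Acta2 (ENSMUSG00000035783), smooth muscle actin and the usual mark of an activated stellate cell, was at 1.53, 2.88 and 6.11 CPM in ketogenic livers, against 2.60, 3.51 and 26.4 CPM in control livers. Control 6 held the 26.4 CPM, and the other 5 control livers lay between 2.60 and 4.54 CPM. That gave a log2 fold change of −0.98 ± 0.61 with all livers (SE, edgeR, adjusted p = 0.481) and 0.10 ± 0.33 without control 6.

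Col1a1 (ENSMUSG00000001506), a chain of type I collagen, was at 11.3, 23.6 and 49.4 CPM in ketogenic livers and at 8.80, 26.3 and 201 CPM in control livers. Control 6 was again the highest, with 9.89 times the median of the other 5 control livers. For Col1a1 the log2 fold change was −1.01 ± 0.74 (SE, edgeR, adjusted p = 0.566) and turned to 0.20 ± 0.46 without control 6. Col3a1, the chain of type III collagen, was at 37.3, 56.4 and 134 CPM in ketogenic livers and at 23.8, 61.8 and 311 CPM in control livers, with ketogenic 4 and control 6 the highest of their diets. Its log2 fold change was −0.56 ± 0.58 (SE, edgeR, adjusted p = 0.717) and turned to 0.26 ± 0.40 without control 6. Col1a2 had the same shape, with 121 CPM in control 6. Lum, a proteoglycan that binds collagen fibrils, was at 5.56, 9.6 and 18.4 CPM in ketogenic livers and at 7.43, 13.8 and 18.7 CPM in control livers, again with those 2 livers on top, and its log2 fold change was −0.38 (−0.62 without ketogenic 4, edgeR, adjusted p = 0.156).

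The ratios between the 3 fibrillar collagen chains in control 6 lay outside the range of every other liver. Col1a1 over Col1a2 was 0.615 to 1.03 in ketogenic livers and 0.552 to 1.66 in control livers, with the 1.66 in control 6 and the next highest control value at 0.937. Col3a1 over Col1a1 was 2.04 to 3.31 in ketogenic livers and 1.54 to 3.21 in control livers, with control 6 the lowest. Without ketogenic 4 and control 6 the 3 chains summed to 0.0104 ± 0.00319% of counts in ketogenic livers and 0.0106 ± 0.00622% in control livers (SD, n = 5 each).

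Timp1 was at 0.0878, 0.189 and 1.92 CPM in ketogenic livers and at 0.0342, 0.176 and 3.42 CPM in control livers. Its 2 high values were ketogenic 4 and control 6, and the other 10 livers lay at or under 0.475 CPM. The counts behind these levels were 3 to 60 in ketogenic livers and 1 to 97 in control livers. Timp2 and Timp3, related inhibitors, both had log2 fold changes of −0.08, and Timp3 was at 6.2 CPM in ketogenic 4 against 16.1 to 23.4 CPM in the other 5 ketogenic livers. Tagln, a second smooth muscle protein with only 7 to 29 counts a library, was not high in control 6, at 0.387 CPM. It was at 0.320, 0.469 and 0.821 CPM in ketogenic livers and 0.235, 0.404 and 0.764 CPM in control livers. Nor was control 6 high in Myh11, smooth muscle myosin, with 3.21 CPM inside the 1.56 to 4.24 CPM of the other control livers. The smooth muscle list summed to 61.7 CPM in control 6, or 0.815 times the median of the other 5 control livers. The portal fibroblast list, in contrast, had its highest sum of any liver in control 6, at 115.6 CPM. That was 1.55 times the median of the other 5 control livers, which lay between 58.7 and 82.25 CPM. Ketogenic livers reached 105.2 CPM.

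Col4a1, a chain of the basement membrane collagen that both stellate and endothelial cells make, followed the fibrillar chains less far: control 6 was the highest control liver, at 1.55 times the median of the other 5. It was at 62.5, 85.6 and 111 CPM in ketogenic livers and at 47.3, 67.2 and 91.2 CPM in control livers. The groups overlapped, and the log2 fold change of 0.35 ± 0.17 did not pass (SE, edgeR, adjusted p = 0.349). Without control 6 it was 0.46 (unadjusted p = 0.0178, adjusted p = 0.192, edgeR). Col4a2, its partner chain, had a log2 fold change of 0.37 and an adjusted p of 0.173 in the same test, and it was called without ketogenic 4 and control 6 (0.51, adjusted p = 0.0297). It was named after its values were seen.

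Over the 20 stellate and fibroblast markers tested, 10 lay above 0 and 10 below, with a median of −0.01. Of 26 further matrix genes, edgeR called 0 and DESeq2 called 1, where they called 3.78% and 7.35% of all genes. The 1 was Mmp14, a matrix metalloproteinase, on the lower side (DESeq2, adjusted p = 0.0462). In edgeR 3 passed an unadjusted p under 0.05, where 16.7% of all genes did. With all livers 9 lay above 0 and 17 below with a median of −0.12, and without control 6 this turned to 16 above and 10 below with a median of 0.05. Within the TGF-beta and PDGF pathway, the ligand Tgfb1 and the matrix protein Tgfbi, a TGF-beta target, were not called (log2 fold changes 0.16 and 0.23). Of 14 further pathway genes, edgeR called 1, Smad7, where it called 3.78% of all genes. DESeq2 called 3 of the 14, where it called 7.35% of all genes. It added Tgfbr1, a TGF-beta receptor, on the lower side and Smad2, a transducer of its signal, on the higher. So did edgeR without ketogenic 4 (5.39% of all genes called) and with the length trend removed (4.98%). Smad7, an inhibitor of TGF-beta and BMP receptors, fell, with 13.6, 15.9 and 20.7 CPM in ketogenic livers against 20.3, 23.7 and 29.8 CPM in control livers (log2 fold change −0.55 ± 0.13, SE, edgeR, adjusted p = 0.0333). Only the 2 closest values of the diets, 20.7 CPM in ketogenic 2 and 20.3 CPM in control 1, crossed. The adjusted p of Smad7 was 0.0635 without control 6 and 0.0614 without ketogenic 4 and control 6. Without both livers the 1 gene called was Smad2 (log2 fold change 0.45, edgeR, adjusted p = 0.0144), beside 4.44% of all genes.

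Among 6 smooth muscle genes, Tpm2, a muscle tropomyosin, rose. It was the only 1 of the 4 tested to be called, where 3.78% of all genes were. It had 12.1, 13.3 and 28.5 CPM in ketogenic livers and 2.18, 3.44 and 5.35 CPM in control livers. The groups did not overlap, with ketogenic 4 the highest ketogenic liver and control 6 the highest control liver. Tpm2 had a log2 fold change of 2.18 ± 0.25 (SE, edgeR, adjusted p = 0.000305), and it was 2.09 without those 2 livers. Acta2, Tagln and Myh11 gave no call beside it.

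**Figure D2:**
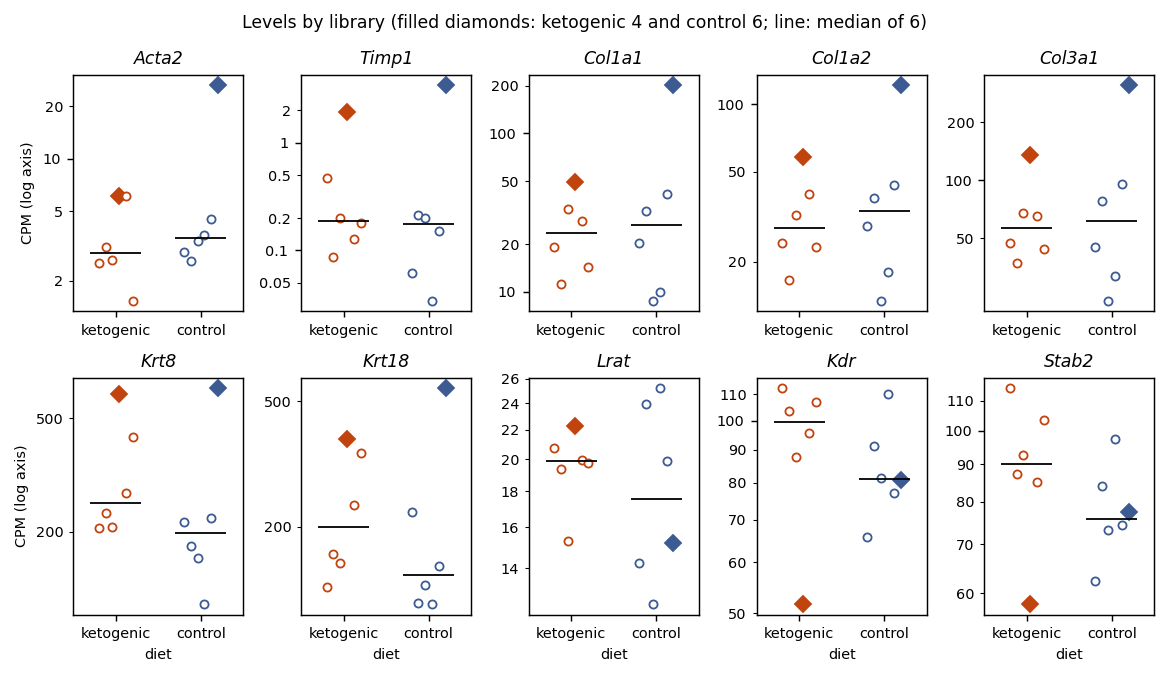
Points are CPM on a log axis for 10 markers in single livers, ketogenic left and control right, with ketogenic 4 and control 6 as filled diamonds and a line at the median of 6. Control 6 is the highest liver in Acta2 (26.4 CPM), Timp1, the 3 collagens, Krt8 and Krt18 but not in Lrat, Kdr or Stab2, and ketogenic 4 is the lowest ketogenic liver in Kdr (51.7 CPM) and Stab2 (58.0 CPM).

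Endothelial markers leaned to the ketogenic side by small amounts and without a call. All 14 had a log2 fold change above 0, from 0.08 to 0.34 with a median of 0.17, where 49.9% of all genes lay above 0. The fold changes come from the same 12 livers and are not independent of one another. As a share of counts the 14 genes summed to 0.0680 to 0.0888% in ketogenic livers and 0.0583 to 0.0713% in control livers. The lowest ketogenic value was ketogenic 4, and the other 5, from 0.0746% up, all lay above the 6 control livers. That separation did not hold in TMM-scaled CPM, where the sums were 673 to 832 in ketogenic livers and 601 to 767 in control livers, and ketogenic 2 and ketogenic 3, at 729 and 736, lay below the highest control liver.

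Pecam1 (ENSMUSG00000020717), a junction protein of all endothelium, was at 34.9, 36.9 and 43.2 CPM in ketogenic livers, against 29.4, 33.5 and 35.1 CPM in control livers. All 6 ketogenic livers lay above the control median, and the diets overlapped only through 34.9 CPM in ketogenic 2 and 35.1 CPM in control 6. Its log2 fold change was 0.19 ± 0.08 (SE, edgeR, unadjusted p = 0.0339, adjusted p = 0.244, n = 6 each). Without ketogenic 4 and control 6, Pecam1 was the 1 marker of 43 whose livers did not overlap, where 6.97% of all genes tested were so separated. With all 12 livers that count was 0 of 43 markers, against 3.54% of all genes tested.

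Vwf, von Willebrand factor of the larger vessels, was at 12.9, 15.2 and 16.9 CPM in ketogenic livers and at 9.65, 12.04 and 16.1 CPM in control livers. All 6 ketogenic livers exceeded the control median, and control 2 reached into their range. For Vwf the fit gave a log2 fold change of 0.31 ± 0.13 (SE, edgeR, unadjusted p = 0.0301, adjusted p = 0.231). The other pan-endothelial genes, the cadherin Cdh5, the angiopoietin receptor Tek and the TGF-beta co-receptor Eng, had log2 fold changes of 0.10, 0.13 and 0.08.

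Kdr (ENSMUSG00000062960), the main VEGF receptor, was at 51.7, 99.6 and 112 CPM in ketogenic livers, against 65.7, 81.0 and 110 CPM in control livers. Ketogenic 4 held the 51.7 CPM and lay below every other liver of either diet, while the other 5 ketogenic livers started at 87.9 CPM. Over all livers Kdr had a log2 fold change of 0.14 ± 0.17 (SE, edgeR, adjusted p = 0.774) and 0.26 without ketogenic 4 (adjusted p = 0.229).

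Sinusoidal markers gave a mixed picture in ketogenic 4. Stab2 (ENSMUSG00000035459), a scavenger receptor for hyaluronan, was at 58.0, 90.0 and 114 CPM in ketogenic livers and at 62.3, 75.9 and 97.4 CPM in control livers. Ketogenic 4 was the lowest of all 12, and the other 5 ketogenic livers started at 85.2 CPM. The log2 fold change was 0.21 ± 0.15 (SE, edgeR, adjusted p = 0.562) and 0.31 without ketogenic 4 (adjusted p = 0.146).

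Clec4g (ENSMUSG00000074491), a lectin of the same cells, was at 59.96, 71.2 and 103 CPM in ketogenic livers and at 53.4, 63.3 and 80.6 CPM in control livers. Here ketogenic 4 was the highest of all 12. Clec4g had a log2 fold change of 0.20 ± 0.14 (SE, edgeR, adjusted p = 0.532) and 0.08 without ketogenic 4. The ratio of Stab2 to Clec4g was 0.563 in ketogenic 4, against 1.14 to 1.84 in the other 5 ketogenic livers and 0.960 to 1.57 in control livers. Stab1, a paralog of Stab2, was also lowest in ketogenic 4, with 64.7 CPM against 93.7 to 108 CPM in the other 5. Lyve1, a hyaluronan receptor, and Fcgr2b, an Fc receptor, had log2 fold changes of 0.25 and 0.13 and were not called.

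The endothelial genes that were low in ketogenic 4 tended to be those with a long exonic length. Stab2 has 8.76 kb of exonic sequence and Clec4g 2.46 kb. Across the 14 endothelial markers, ketogenic 4's level relative to the median of the other 5 ketogenic livers had a Spearman's rho of −0.71 with exonic length, and −0.67 across 24 further endothelial genes. These are correlations across genes of 1 library, which share its preparation and depth, and are given as a description. The 6 endothelial markers of at least 5 kb summed to 0.0304% of counts in ketogenic 4, against 0.0386 to 0.0502% in the other 5 ketogenic livers, while the 8 under 5 kb summed to 0.0376%, against 0.0324 to 0.0386%. Whether the length trend sets these values was not tested. With the length trend of each library removed, the endothelial markers still gave 0 calls.

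**Figure D3:**
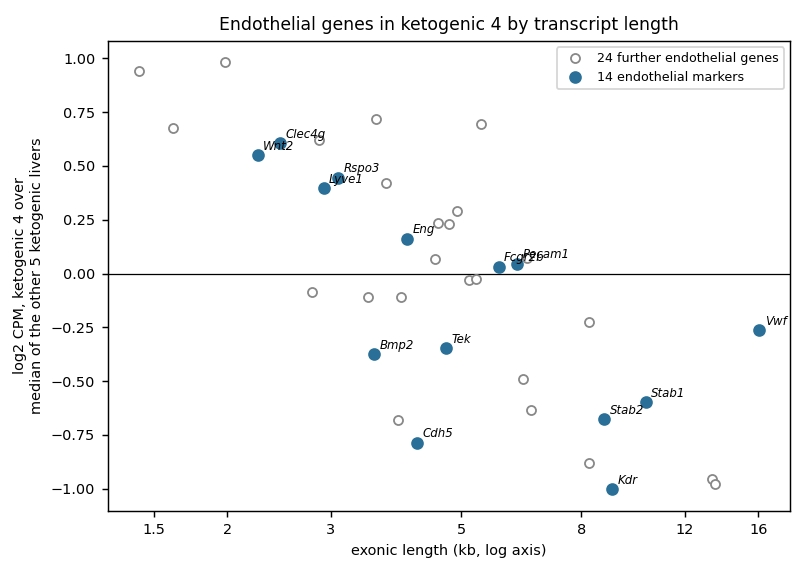
Each point is an endothelial gene, with exonic length in kb on a log axis and the log2 ratio of its CPM in ketogenic 4 over the median of the other 5 ketogenic livers. The 14 markers (filled) run from Clec4g and Wnt2 above 0 at the short end to Kdr, Stab1 and Stab2 below 0, and the 24 further endothelial genes (open) show the same tendency.

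Without ketogenic 4, 7 of the 14 endothelial markers passed an unadjusted p under 0.05 on the higher side (Pecam1, Kdr, Vwf, Tek, Stab1, Stab2 and Bmp2), where 10.5% of all genes did, and 0 were called after adjustment in edgeR. In the same fit 5.39% of all genes were called. Over all cell types, 8 of the 41 markers tested passed unadjusted on that side. Of 24 further endothelial genes, 21 lay above 0 with all livers and 0 were called. The exception in direction with the smallest p was Gata4, a transcription factor of sinusoidal endothelium that stellate cells also express, at 20.2, 29.8 and 35.0 CPM in ketogenic livers and 30.1, 35.5 and 46.5 CPM in control livers (log2 fold change −0.34 ± 0.15, SE, edgeR, unadjusted p = 0.0402, adjusted p = 0.267).

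Ligands that endothelial cells send to hepatocytes were not called. Bmp2, which acts on hepatocyte BMP receptors and drives hepcidin, was at 32.3, 41.4 and 46.7 CPM in ketogenic livers and 29.6, 35.8 and 41.8 CPM in control livers, with ketogenic 4 the lowest of its diet. Its log2 fold change was 0.21 ± 0.11 (SE, edgeR, adjusted p = 0.401). Of 9 genes that respond to or belong to BMP signalling, edgeR called 2, both lower, where 3.78% of all genes were called. The count was 3 with DESeq2 and without ketogenic 4, 0 without control 6 and 1 without both livers. Hamp, which encodes the iron hormone hepcidin, fell, with 44.6, 245 and 420 CPM in ketogenic livers against 599, 798 and 1275 CPM in control livers (log2 fold change −1.81 ± 0.43, SE, edgeR, adjusted p = 0.0358). The call was lost without control 6 (adjusted p = 0.0679) and with the length trend removed (adjusted p = 0.0798). The diets did not overlap, and the lowest liver was ketogenic 4. The other was Smad7, given above.

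Wnt2 and Rspo3, the Wnt ligand and its enhancer that central vein and pericentral sinusoidal endothelium release, were not called. Wnt2 was at 4.59, 5.51 and 7.34 CPM in ketogenic livers and 2.96, 4.496 and 5.96 CPM in control livers, a log2 fold change of 0.34 ± 0.19 (SE, edgeR, adjusted p = 0.415). Rspo3 had a log2 fold change of 0.08, and −0.08 without ketogenic 4 and control 6. Of 11 genes known as Wnt-driven in pericentral hepatocytes, 2 rose in edgeR, where 2.34% of all genes did. Cyp2e1, which oxidises ethanol and acetone, was at 7465, 8643 and 9741 CPM in ketogenic livers and 3428, 5294 and 6678 CPM in control livers, with no overlap (log2 fold change 0.74 ± 0.17, SE, edgeR, adjusted p = 0.0232). Cyp1a2 was the other (0.67 ± 0.15, adjusted p = 0.0262, and 0.0541 with the length trend removed), and Axin2, a general Wnt target, was at 0.02 and not called.

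Among 11 tested partners of the VEGF, angiopoietin and HGF pathways, 2 were called in edgeR, where 3.78% of all genes were. Nrp2, a co-receptor for VEGF and semaphorins, rose, with 22.0, 49.3 and 63.9 CPM in ketogenic livers and 21.6, 24.03 and 27.2 CPM in control livers. Ketogenic 4 had the 22.0 CPM and lay inside the control range, and the other 5 ketogenic livers, from 39.5 CPM, lay above all 6 control livers. Nrp2 had a log2 fold change of 0.96 ± 0.19 (SE, edgeR, adjusted p = 0.0125) and 1.10 without ketogenic 4. Hgfac, the HGF-activating protease that hepatocytes secrete, fell to 105, 138 and 152 CPM in ketogenic livers, against 152, 214 and 245 CPM in control livers (log2 fold change −0.62 ± 0.13, SE, edgeR, adjusted p = 0.0163). Hgf itself, from stellate cells, had a log2 fold change of −0.10 and was not called, with 6.24 CPM in ketogenic 4 against 12.9 to 17.0 CPM in the other 5.

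Bile duct markers were scarce, and the direction of 3 of the 4 tested turned without ketogenic 4. The 5 genes summed to 0.00143 ± 0.000422% of counts in ketogenic livers and 0.00155 ± 0.000424% in control livers (SD, n = 6 each). Krt19 (ENSMUSG00000020911), the classical duct keratin, was at 0.933, 2.1 and 6.01 CPM in ketogenic livers and at 0.941, 2.53 and 4.26 CPM in control livers. Ketogenic 4 was the highest liver, with 3.67 times the median of the other 5 ketogenic livers. Krt19 had a log2 fold change of 0.08 ± 0.45 (SE, edgeR, adjusted p = 0.960) and −0.38 ± 0.39 without ketogenic 4. It was also just below 0 in limma-voom and with the length trend removed.

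Epcam, an adhesion molecule of duct and progenitor cells, and Krt7, a second duct keratin, were also highest in ketogenic 4, at 6.56 and 2.21 CPM, against at most 3.38 and 1.31 CPM in the other 5 ketogenic livers. Cftr, the chloride channel of the ducts, was at 0.0342 to 0.474 CPM over all livers. Spp1, osteopontin, one of 14 further duct genes, was likewise highest in ketogenic 4, with 128 CPM against 28.0 to 52.3 CPM in the other 5. Of the 13 further duct genes tested, edgeR called 0, with 1 at an unadjusted p under 0.05, where 16.7% of all genes were. DESeq2 called 1, beside 7.35% of all genes. It was Slc5a1, a sodium-glucose transporter, on the lower side (DESeq2, adjusted p = 0.0213).

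Sox9 (ENSMUSG00000000567), the transcription factor of duct and progenitor cells, went the other way. It was at 4.72, 7.20 and 8.6 CPM in ketogenic livers and at 6.5, 9.36 and 13.7 CPM in control livers. All 6 ketogenic livers lay below the control median, and the ranges overlapped. Sox9 had a log2 fold change of −0.48 ± 0.19 (SE, edgeR, unadjusted p = 0.0236, adjusted p = 0.203) and −0.45 without ketogenic 4. Of the 4 duct markers tested, 3 lay above 0 with all livers and 0 without ketogenic 4.

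Krt8 and Krt18 pair to form the keratin filaments of hepatocytes, and duct cells make them too. Krt8 (ENSMUSG00000049382) was at 206, 253 and 605 CPM in ketogenic livers and at 112, 197 and 635 CPM in control livers. Ketogenic 4 and control 6 were the highest of their diets, with ketogenic 6 next at 429 CPM, and all 6 ketogenic livers exceeded the control median. The log2 fold change was 0.35 ± 0.41 with all livers (SE, edgeR, adjusted p = 0.758) and 0.60 ± 0.24 without those 2 (adjusted p = 0.184).

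Krt18 (ENSMUSG00000023043) was at 129, 199 and 378 CPM in ketogenic livers and at 114, 140 and 548 CPM in control livers, with the same 2 livers on top. Krt18 had a log2 fold change of 0.13 ± 0.42 (SE, edgeR, adjusted p = 0.929) and 0.49 without those 2. While Krt8 spanned 5.68-fold over the 12 livers, the ratio of Krt8 to Krt18 stayed between 0.976 and 1.60. Krt19 did not follow them in control 6, at 2.89 CPM against 0.941 to 4.26 CPM in the other 5 control livers.

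Spp2 (ENSMUSG00000026295), secreted phosphoprotein 2, is known as a plasma protein made by hepatocytes, and osteopontin, the duct marker with a similar name, is Spp1. Per kb of exonic sequence it averaged 82.3 CPM over the 12 livers, against 1.32 CPM for Krt19. Spp2 was at 65.1, 92.1 and 169 CPM in ketogenic livers and at 52.3, 63.0 and 75.7 CPM in control livers. All 6 ketogenic livers exceeded the control median, with ketogenic 4 the highest. Spp2 had a log2 fold change of 0.61 ± 0.20 (SE, edgeR, unadjusted p = 0.00819, adjusted p = 0.114), the smallest adjusted p of the 41 markers. With the length trend removed it was called (0.53, adjusted p = 0.0406, with 4.98% of all genes called), and without ketogenic 4 it was not (0.39, adjusted p = 0.100).

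**Figure D4:**
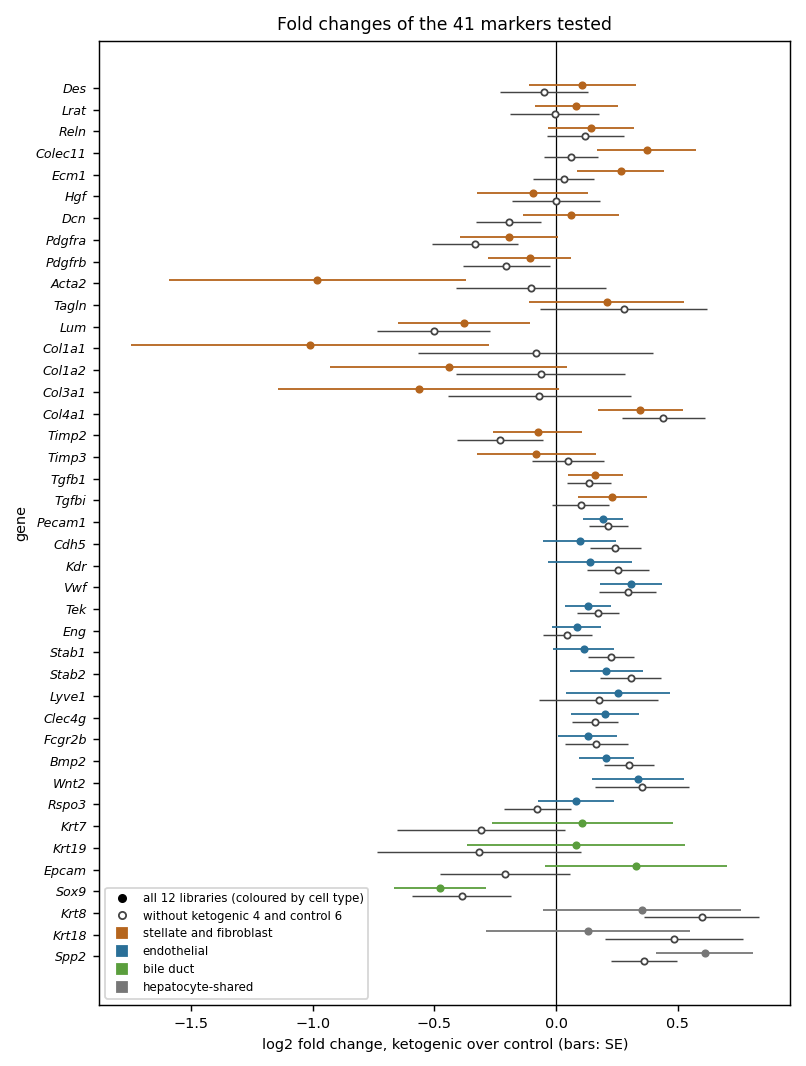
Points are log2 fold changes, ketogenic over control, with bars of 1 SE from edgeR, for the 41 markers tested, filled with all 12 livers and open without ketogenic 4 and control 6. The 14 endothelial genes lie between 0.08 and 0.34 with all livers, while Acta2 and Col1a1 move from −0.98 and −1.01 to −0.10 and −0.08.

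Per kb of exonic sequence, the order of levels placed Krt18 (155 CPM per kb, mean of 12 livers), Krt8 and Spp2 first, then the stellate genes Ecm1 (64.8) and Dcn (31.9), the endothelial gene Eng (31.2), the stellate gene Colec11 (29.03) and the endothelial gene Clec4g (28.1). Cftr was last at 0.0323 CPM per kb, after Krt7 (0.148) and Tagln (0.239). The order depends on the lengths used, which merge all annotated exons of a gene and can exceed the length of any single transcript.

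The libraries that stood apart did so differently. Ketogenic 4 was at least 2-fold above the median of its diet's other 5 livers in 14 of 43 markers, where 7.32% of all genes tested were. It was at least 2-fold below in 3, where 8.92% were. Of the 14, 8 were stellate and fibroblast genes, 4 were bile duct genes and 2 were hepatocyte-shared. The 14 include Timp1 and Cftr, which were too sparse to be tested, and in Cftr ketogenic 4 was not the highest ketogenic liver. Control 6 was at least 2-fold above in 7 of 43, against 3.34% of all genes tested, and these were Acta2, Col1a1, Col1a2, Col3a1, Timp1, Krt8 and Krt18. It was at least 2-fold below in 1, Epcam, against 4.07% of all genes tested. In control 6 the sum of the stellate identity genes was not high with the collagens: it was 0.0363% of counts, the lowest of the control livers, which reached 0.0631%. Singly these genes differed. Reln, Colec11, Ecm1 and Pdgfra were lowest of the control livers in control 6, and Lrat, Hgf, Dcn and Pdgfrb lay inside the range of the other 5. Des was highest there, at 9.16 CPM. Mesothelial markers summed to 0.812 to 12.8 CPM in ketogenic livers and 1.09 to 7.84 CPM in control livers, and control 6 had 0.384 times the median of the other 5 control livers. The part of sampled tissue in these differences was not tested.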

How the data were processed

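Raw counts, as whole numbers of reads per gene with no normalization, were deposited by the authors in 1 table for 12 liver libraries. The submitters' processing notes name, with no roles, HISAT2 2.1.0, StringTie 1.3.4d, Cufflinks and fastp 0.19.3. Nothing in the labels or the table states the genome build, annotation or strand setting, and the table's gene coordinates are not printed. Per the labels' protocols, RNA came from column extraction and a NEBNext Ultra library kit.

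From the deposited counts, edgeR 4.0.16 (R 4.3.3) was run with filterByExpr by diet, TMM scaling and a robust quasi-likelihood fit on diet alone, over 13995 genes, with Benjamini-Hochberg adjustment over all of them. DESeq2 1.42.0 and limma 3.58.1 were alternatives. On simulated data with 6 libraries a diet and 13860 genes, edgeR recovered 70 of 100 genes with a simulated log2 fold change of 1, and 91 of 100 with one of 2. The median biological coefficient of variation was 0.213. Adjusted p-values in the text are edgeR's unless another tool is named, and SE is its standard error. CPM is the count per 1000000 of the TMM-scaled library size, computed here from the deposited counts. The labels give no batch. Exonic lengths came from GENCODE M21, joined on gene IDs (99.8% of tested genes found). Each is the merged length of a gene's exons over all its annotated transcripts. A spline with 4 degrees of freedom removed the length trend. Of the table's rows, 45 had no symbol, and they stayed in the fit under their IDs.

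The markers and the further lists were chosen with earlier results of these data known. Every marker could be named. Full values were given for called markers, those at an unadjusted p under 0.05 and a fixed set of anchors, and from each further list the called genes with the smallest p. Genes of further lists named without a call were picked after their values were seen. Promoter windows were read from RefSeq's GRCm38.p6 table, which matched 30 of the 43 symbols. The calls over 1 further list are not reported here.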

Additional observations from a re-analysis of the deposited data

Results flagged for a closer look

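In 15 of 86 sets of 6 livers (43 markers in each diet), 1 liver stood apart from the other 5 by a wide gap. Were the sets independent, about 1 in 20 would show such a gap by chance, or about 4 sets. The markers come from the same livers and are not independent, so the excess over 4 is a description and no test. The gap was measured on untransformed CPM, and whether 1 in 20 holds for such values was not tested. Ketogenic 4 and control 6 had also been singled out beforehand. Of the 15 sets, 7 were ketogenic 4, 7 were control 6 and 1 was control 3. Ketogenic 4 was the highest ketogenic liver in Colec11 (89.1 CPM), Col3a1 (134 CPM), Timp1 (1.92 CPM), Krt19 (6.01 CPM), Epcam (6.56 CPM) and Spp2 (169 CPM), and the lowest in Stab1 (64.7 CPM). Control 6 was the highest control liver in Acta2 (26.4 CPM), Col1a1 (201 CPM), Col1a2 (121 CPM), Col3a1 (311 CPM), Timp1 (3.42 CPM), Krt8 (635 CPM) and Krt18 (548 CPM). Control 3 was the lowest control liver in Pecam1 (29.4 CPM).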

How the results depend on the processing

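The alternatives were DESeq2, limma-voom, scaling by RLE or library size alone, no filter or a stricter one on low counts, a replicate block, the length trend removed, a stricter threshold and livers left out. The number of markers called was 0 in each of them except 2: it was 1, Spp2, with the length trend removed and 1 with the length trend removed and the replicate block (log2 fold change 0.52). The count of genes called over the whole table was 529, 1028 with DESeq2, 197 at an adjusted p under 0.01, and 319 to 761 with 1 liver left out, the lowest without control 3 and the highest without ketogenic 4. It was 336 without ketogenic 6.

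The replicate numbers did not pair the livers, with correlations of same-numbered livers from −0.29 to 0.34, and a fit with the replicate block called 268 genes and 0 markers.

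Of 941 marker values over 23 alternatives, 906 kept their direction and side of the threshold, 33 turned direction and 2 were newly called, and 26 markers never turned. The 5 turns with all livers kept were small: the log2 fold change of Krt19 was −0.025 with limma-voom, −0.043 with the replicate block, −0.0083 with the length trend removed and −0.062 with both, and that of Dcn was −0.0015 with the block. With 1 liver left out, or ketogenic 4 and control 6 together, log2 fold changes that turned ranged for Des −0.11 to 0.21, Hgf −0.21 to 0.049, Dcn −0.20 to 0.15, Timp3 −0.19 to 0.092, Krt7 −0.31 to 0.38, Krt19 −0.38 to 0.33, Epcam −0.21 to 0.51, Krt18 −0.061 to 0.67, Timp2 −0.23 to 0.016, Lrat −0.0054 to 0.19, Acta2 −1.19 to 0.098, Col1a1 −1.30 to 0.20, Col1a2 −0.69 to 0.18, Col3a1 −0.90 to 0.26 and Rspo3 −0.077 to 0.15.

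Low counts limit Timp1 and Cftr, each with as few as 1 count in a library, and Tagln, with 7 to 29 counts. Among the other bile duct genes, counts were 15 to 69 for Krt7, 28 to 188 for Krt19 and 28 to 205 for Epcam. Sox9 had more, 157 to 449. Reads shared with an antisense partner, a paralog or a pseudogene could not be told apart. The cause of each turn was not tested.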

Other observations

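Neutrophil and lymphocyte markers were scarce: their 8 genes summed to 6.51 to 17.4 CPM in ketogenic livers and 4.71 to 7.33 CPM in control livers, with ketogenic 4 at 2.40 times the median of the other 5 ketogenic livers. Of the 7 tested, 0 were called in edgeR and 2 passed an unadjusted p under 0.05 on the higher side, where 9.05% of all genes did. Without ketogenic 4 and control 6, 0 of the 7 passed. Of 10 hepatocyte genes, among them Alb, 0 were called and 8 had a log2 fold change below 0, with a median of −0.22. At an unadjusted p under 0.05, 1 passed higher and 1 lower, where 16.7% of all genes passed on either side. The 10 hepatocyte genes summed to 8.41 to 10.9% of counts in ketogenic livers and 8.46 to 11.6% in control livers. Of 7 portal fibroblast genes tested, 0 were called in edgeR and 0 passed unadjusted. Of 3 mesothelial genes tested, the same counts were 0 and 0.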
